A study of Mus musculus with 12 samples.

Results

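The genes described here are the macrophage scavenger receptors *Stab1*, *Msr1*, *Cd36*, *Marco*, *Cd163* and *Mrc1*, the secreted scavenger receptor protein gene *Cd5l*, and *Lyve1*, *Mertk* and *Timd4*, whose receptors bind hyaluronan or dying cells. They were taken by gene symbol, and all 10 were listed in both count tables of the study, among 55638 identifiers in all. The genes were selected on the fold changes and levels measured in injured against sham mice, which were known when the choice was made, so the comparison of injured with sham mice is given for these 10 genes as a description without a test.

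RNA was sequenced from the brain of adult male C57BL/6J wild-type mice in 2 batches, and the study's text places the tissue around the contusion. In the 2018 batch, 3 sham mice, which had the procedure without the impact, were set beside 3 mice 7 days after traumatic brain injury (TBI) by controlled cortical impact. In the 2022 batch all mice were injured, with 3 injured control mice and 3 mice given zileuton, an inhibitor of 5-lipoxygenase, at 10 mg per kg per day by intraperitoneal injection after TBI. The labels name no vehicle for the controls, though the study's text calls them vehicle-treated, there was no sham group in 2022, and the source names of the zileuton mice read 7, 8 and 9 days although their library names all read 7 days. The 2022 libraries could be tied to their group but not to a single numbered mouse, so these mice are called A, B and C.

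Scavenger receptors take up modified lipoproteins, dead cell debris, extracellular proteins and microbes, and most are found on tissue macrophages. CD5L, also called AIM, is a secreted protein of the scavenger receptor cysteine-rich family made by macrophages, and nuclear receptors of the LXR group are known to induce its gene. In the brain, resident microglia clear dying cells through MERTK among others, whereas MRC1, CD163, LYVE1 and STAB1 are best known from macrophages of the vessels and meninges or from endothelium.

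Totals ran from 42929862 to 48684674 counts per library in 2018 and from 27845562 to 35453257 in 2022. Levels are counts relative to library size (CPM), scaled by the trimmed mean of M values. The injured mice of 2018 carried more *Gfap* (2241 to 2616 CPM), an astrocyte filament gene, than the sham mice (141 to 221 CPM). Libraries of the 2018 batch, all labelled male, held *Xist* at 18.5 to 23.5 CPM beside the Y-linked *Ddx3y* at 51.7 to 66.8 CPM, whereas *Xist* was at 0.0343 to 0.197 CPM in the 2022 libraries. *Xist* thus went against the label in all 6 libraries of 2018, sham and injured alike. Each library is called a mouse here, but the labels do not say whether a library held RNA of a single animal or of several.

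To place the members beside their start sites, the 250 bases before the RefSeq start (GRCm38.p6) are shown for *Cd5l*, *Stab1*, *Mrc1* and *Cd36*, which were higher in every injured mouse, and for *Cd163*, whose groups overlapped. Each is written 5′ to 3′ on the strand of its gene, with the motif AGGAAG, the core of ETS-family sites such as PU.1, in capitals on either strand (CTTCCT on the other). The windows lie at chr3:87357631-87357880 on the plus strand, chr14:31168642-31168891 on the minus strand, chr2:14229164-14229413 on the plus strand, chr5:17835897-17836146 on the minus strand and chr6:124304401-124304650 on the plus strand, in that order.
Cd5l: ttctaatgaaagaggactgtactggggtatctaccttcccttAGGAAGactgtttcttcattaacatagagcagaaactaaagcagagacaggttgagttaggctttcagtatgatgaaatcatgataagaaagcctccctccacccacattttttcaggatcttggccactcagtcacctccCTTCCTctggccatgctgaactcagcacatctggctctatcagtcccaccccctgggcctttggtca
Stab1: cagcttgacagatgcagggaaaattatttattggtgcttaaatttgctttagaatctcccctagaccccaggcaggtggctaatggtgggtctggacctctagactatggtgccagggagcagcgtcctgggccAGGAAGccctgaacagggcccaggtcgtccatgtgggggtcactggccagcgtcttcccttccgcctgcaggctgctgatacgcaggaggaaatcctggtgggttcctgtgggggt
Mrc1: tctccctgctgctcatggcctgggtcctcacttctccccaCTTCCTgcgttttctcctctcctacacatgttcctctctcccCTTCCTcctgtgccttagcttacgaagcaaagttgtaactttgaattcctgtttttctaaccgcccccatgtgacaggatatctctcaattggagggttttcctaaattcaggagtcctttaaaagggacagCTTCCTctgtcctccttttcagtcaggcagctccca
Cd36: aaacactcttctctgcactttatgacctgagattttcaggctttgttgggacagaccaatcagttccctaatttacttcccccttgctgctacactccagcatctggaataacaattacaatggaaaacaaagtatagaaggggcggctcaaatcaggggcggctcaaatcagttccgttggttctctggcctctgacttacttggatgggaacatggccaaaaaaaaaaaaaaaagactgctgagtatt
Cd163: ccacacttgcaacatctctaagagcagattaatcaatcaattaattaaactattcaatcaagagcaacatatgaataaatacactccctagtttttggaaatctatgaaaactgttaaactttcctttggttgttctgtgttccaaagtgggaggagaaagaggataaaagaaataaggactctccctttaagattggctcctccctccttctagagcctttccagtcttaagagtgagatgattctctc
Of the 10 genes, 8 had a window in the table, and *Msr1* and *Lyve1* did not. The motif was found in 4 of these 8 windows, beside 29.5% of all 32851 windows of this length. *Cd5l* held it 2 times, first at 208 bases before the start on the gene's strand and again at 67 bases on the opposite strand. *Stab1* held it 1 time, *Mrc1* 3 times and *Marco* 2 times, whereas the windows of *Cd36*, *Cd163*, *Mertk* and *Timd4* did not hold these letters. The *Cd36* window lies inside the annotated gene (17781690 to 17888801, minus strand), so bases before the outermost start of *Cd36* were not searched. The AP-1 letters TGANTCA (6.75% of all windows), the direct repeat with 4 spacer bases known for LXR (0.0152%) and TATAAA (12.4%), searched on both strands, were in none of the 8 windows.

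After injury *Cd5l*, *Msr1*, *Stab1*, *Mrc1* and *Cd36* were higher in each of the 3 injured mice than in any sham mouse. The folds ran from 2.11 for *Cd36* to 709 for *Cd5l*, the latter with sham counts under 3 set to 3. *Mertk*, *Cd163* and *Lyve1* overlapped between the groups. *Marco* and *Timd4* stayed at 19 counts or fewer per library, with *Marco* higher in every injured mouse and *Timd4* overlapping. In the fit across all 19536 genes that passed the filter on low counts (edgeR quasi-likelihood test), 28.0% of genes differed after injury at an adjusted p under 0.05 with 16.8% higher and 11.2% lower, given here only as the background of the comparison. Genes higher in every injured mouse than in every sham mouse made up 24.6% of all genes tested. Of the 10 members 8 passed the filter, *Cd5l* through the injured mice alone, and 5 were at an adjusted p under 0.05. The choice of genes used this contrast, so their count is no test and is not read against these shares. In brain tissue taken whole, more cells of a type and more RNA per cell cannot be told apart.

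*Cd5l* (ENSMUSG00000015854, chromosome 3, 87357881 to 87371073, GRCm38) was counted 6, 0 and 0 times in the sham libraries and 1564, 2516 and 4386 times in the injured ones. The gene was near the limit of detection in sham brain and abundant in every injured brain. In CPM the injured mice were at 31.8, 51.6 and 101.8, a mean of 61.7 ± 36.1 (SD, n = 3). With sham counts under 3 set to 3 in each library, the mean was 709-fold higher after injury, a value that depends on this floor and is no lower bound. The ratio of summed counts was 1389, with a 95% interval of 638 to 3787 that covers counting error only. Among the injured mice its level differed 3.20-fold from lowest to highest, more than that of any other of the 8 members that passed the filter.

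*Stab1* (ENSMUSG00000042286, chromosome 14, 31139013 to 31168641) encodes stabilin-1, a large endocytic receptor of macrophages and sinusoidal endothelium that takes up acetylated lipoprotein and matrix proteins. Counts were 554, 683 and 597 in sham and 6386, 6034 and 6508 in injured mice. The injured mice lay close together and far above the sham mice. Its mean level went from 13.2 ± 1.35 to 135 ± 14.3 CPM, a fitted log2 fold change of 3.35 (SE 0.112), or 10.2-fold with a 95% interval of 8.56 to 12.2. The highest injured mouse was only 1.22 times the lowest. The gene overlaps *Nt5dc2* on the opposite strand, and whether the counting used strand is not given in the sources used here.

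*Msr1* (ENSMUSG00000025044, chromosome 8, 39581685 to 39642673), the class A macrophage scavenger receptor for modified lipoprotein, was at 16, 14 and 14 counts in sham and 466, 540 and 1035 in injured mice. Sham libraries held few reads of the gene, and the third injured mouse stood above the other two. The mean was 0.317 ± 0.0329 CPM in sham and 14.9 ± 7.98 CPM in injured mice. The fitted log2 fold change was 5.54 (SE 0.425), or 46.4-fold with an interval of 23.8 to 90.6. On the log2(value + 1) scale of the authors' FPKM the difference was 1.63, since the low sham level is pulled up by the added 1.

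*Mrc1* (ENSMUSG00000026712, chromosome 2, 14229392 to 14332057), the mannose receptor CD206 of perivascular and meningeal macrophages, was counted 252, 336 and 254 times in sham and 904, 530 and 869 times in injured mice. The second injured mouse was the lowest of its group but still above all sham mice. The means were 6.07 ± 1.04 and 16.5 ± 4.93 CPM, a log2 fold change of 1.44 (SE 0.235) or 2.71-fold (1.87 to 3.93). *Cd36* (ENSMUSG00000002944, chromosome 5, 17781690 to 17888801), a class B receptor for oxidised lipoprotein and long-chain fatty acids that blood vessel endothelium also carries, stood at 688, 643 and 788 counts in sham and 1652, 1015 and 1823 in injured mice. As for *Stab1* and *Mrc1*, the second injured mouse was the lowest of its group. The means were 15.3 ± 1.34 and 32.2 ± 10.8 CPM, a log2 fold change of 1.08 (SE 0.222) or 2.11-fold (1.49 to 3.00).

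*Mertk* (ENSMUSG00000014361, chromosome 2, 128698956 to 128802894), the receptor kinase that recognises dying cells through the bridging proteins GAS6 and protein S, had 2194, 2752 and 2249 counts in sham and 2693, 2713 and 3114 in injured mice. The second sham mouse lay above both the first and the second injured mouse in CPM. The means were 51.8 ± 6.66 and 60.9 ± 9.87 CPM, and the log2 difference was 0.23 with an interval of −0.06 to 0.53. *Cd163* (ENSMUSG00000008845), the receptor for haptoglobin-bound haemoglobin, had 171, 137 and 206 counts in sham and 174, 205 and 175 in injured mice. Its means of 3.70 ± 0.692 and 3.94 ± 0.353 CPM differed by 0.09 on the log2 scale (−0.37 to 0.55). *Lyve1* (ENSMUSG00000030787), a hyaluronan receptor of lymphatic endothelium and of part of the border macrophages, had 69, 105 and 55 counts in sham and 113, 59 and 59 in injured mice. The difference of −0.02 (−0.82 to 0.78) changed sign under 5 other settings of scaling or test and without single libraries. For these 3 genes the intervals leave room for changes of up to 1.44-fold, 1.46-fold and 1.71-fold upward.

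*Marco*, a class A receptor of marginal zone and alveolar macrophages, had 2, 0 and 2 counts in sham and 10, 4 and 6 in injured mice, a ratio of summed counts of 4.92 with a counting interval of 1.65 to 19.8. *Timd4*, a phosphatidylserine receptor of long-lived resident macrophages, had 6, 6 and 2 counts in sham and 14, 6 and 19 in injured mice, a ratio of 2.74 (1.46 to 5.47). Neither gene passed the filter in either batch, and the counting intervals leave out the spread between mice.

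**Figure D1:**
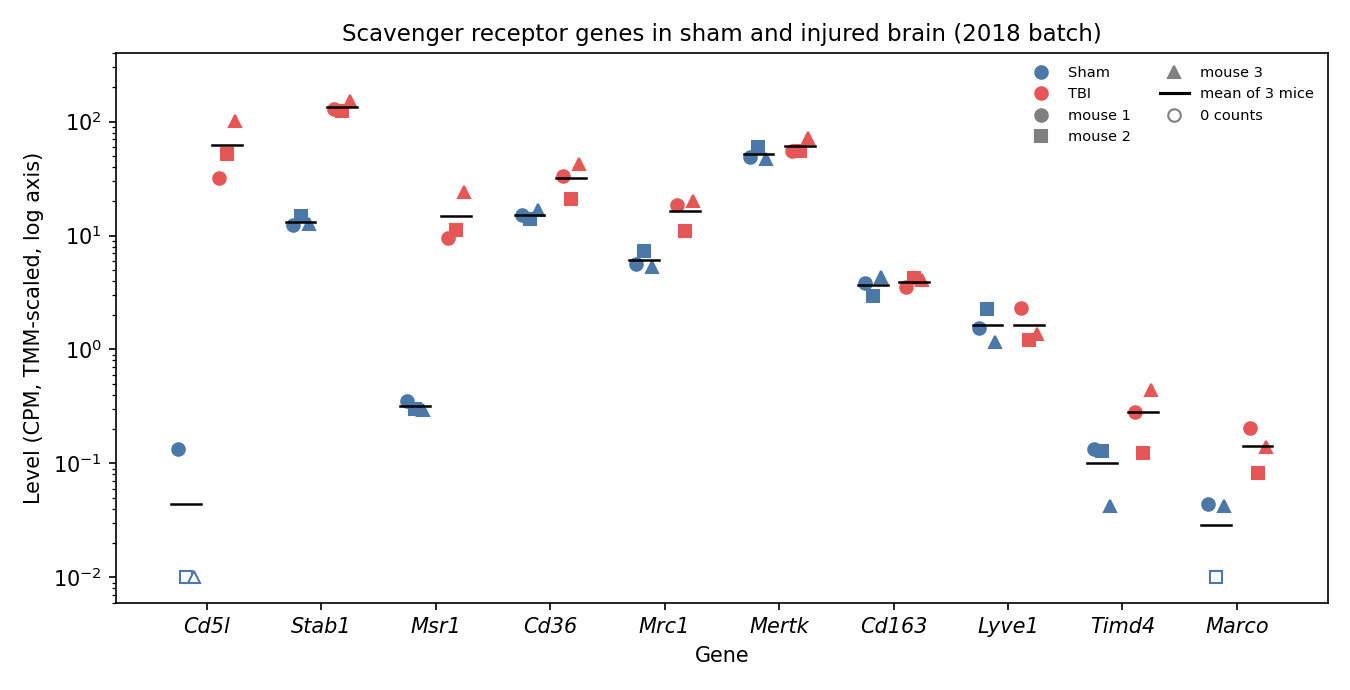
Level of each of the 10 genes in CPM on a log axis in each of 3 sham mice (blue) and 3 injured mice (red) of the 2018 batch, with the mean as a bar and libraries with 0 counts as open symbols placed at the foot of the axis. The injured mice lie above all sham mice for *Cd5l*, *Stab1*, *Msr1*, *Cd36* and *Mrc1*, whereas the groups overlap for *Mertk*, *Cd163* and *Lyve1*. Of the genes that did not pass the filter, *Marco* also lies higher in every injured mouse, at 10 counts or fewer per library, and *Timd4* overlaps.

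Per length, in the authors' FPKM, the order of the genes differed between the groups. In sham brain *Mertk* was highest at 11.7 ± 1.53 FPKM, followed by *Cd36* at 4.17 ± 0.370, *Stab1* at 1.26 ± 0.133 and *Mrc1* at 0.935 ± 0.163, with no overlap between neighbours. *Cd163* (0.665 ± 0.125) and *Lyve1* (0.556 ± 0.191) overlapped each other, and *Msr1*, *Timd4*, *Cd5l* and *Marco* were all under 0.1 FPKM. In injured brain *Cd5l* had the highest mean, 30.8 ± 17.6 FPKM, but its lowest mouse (15.8 FPKM) was within the range of *Mertk* (12.8 to 16.7 FPKM). *Mertk* (14.3 ± 2.15) and *Stab1* (13.3 ± 1.22) overlapped as well, *Cd36* followed at 9.10 ± 2.92, and *Mrc1* (2.62 ± 0.747) and *Msr1* (2.37 ± 1.24) could not be ordered. *Cd163* and *Lyve1* again overlapped, at 0.734 ± 0.0736 and 0.566 ± 0.200 FPKM.

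The injured mice were not alike. Of the 8 genes that passed the filter, 6 were highest in TBI mouse 3 (*Cd5l*, *Stab1*, *Msr1*, *Cd36*, *Mrc1* and *Mertk*), beside 37.7% of all genes tested. The summed level of 12 monocyte marker genes was also highest in that mouse, at 1479 CPM against 889 and 756 in the other injured mice. In the sham mice it was 87.7 to 99.8 CPM, and 10 of the 11 genes that passed the filter rose. Of all genes tested 16.8% rose, a share that also stands beside the counts of the next lists. *Ly6c2*, *Plac8*, *Chil3*, *F10* and *Arg1* had sham means of 0.0724, 0.0580, 0.0284, 0.0432 and 0.0872 CPM, under the filter's cutoff of 0.213 CPM. They passed through the injured mice alone, so their direction was set by the filter. Most of the sum in injured mice was the single gene *Lyz2*, at 829 ± 357 CPM there and 9.53 ± 1.22 CPM in sham mice. The 10 fibroblast and meningeal markers summed to 636, 394 and 996 CPM in TBI mice 1, 2 and 3, against 248 to 261 in sham mice, and 6 of 10 rose, *Fn1* being on both lists. *Mrc1*, *Cd36* and the border macrophage markers were likewise lowest in TBI mouse 2. Border macrophage markers, 14 genes such as *Folr2* and *Siglec1*, summed to 185, 148 and 226 CPM against 46.5 to 55.9 in sham, and 11 of 14 rose. *Folr2*, at a sham mean of 0.0641 CPM, also passed the filter through the injured mice alone. Homeostatic microglia markers, 12 genes, summed to 1106, 1233 and 1535 CPM against 372 to 439, and all 12 rose. The part of these cell types in the members' levels was not tested. Without TBI mouse 3 the fitted log2 fold change of *Msr1* was 5.01. With single libraries left out, that of *Cd5l* ran from 9.79 to 14.49, the highest without sham mouse 1, when the remaining sham libraries hold 0 counts, so its fitted value is no bound.

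Other cells that carry these receptors were checked by their own markers. Red blood cell genes were read beside *Cd163*, the receptor for haptoglobin-bound haemoglobin. Of all genes tested, 16.8% rose and 11.2% fell. Of 8 genes marking macrophages of liver and spleen, where *Cd5l*, *Marco* and *Timd4* are best known, *Clec4f*, the defining Kupffer cell gene, was at 0 counts in all injured mice, and *Vsig4*, *Spic*, *Cd209b* and *C6* had at most 12 counts in any library of 2018. Their 8 genes summed to 36.1 to 47.7 CPM in injured and 7.87 to 8.88 CPM in sham mice, almost all of it the metal transporters *Slc40a1* (5.43 ± 0.314 to 19.0 ± 4.44 CPM, adjusted p = 0.000137, edgeR) and *Slc11a1* (2.24 ± 0.371 to 23.5 ± 3.41 CPM, adjusted p = 7.52e-06, edgeR). Beside *Lyve1*, 1 of 6 lymphatic endothelial markers rose and 1 fell: *Pdpn*, which reactive glia also make, went from 9.94 ± 2.66 to 38.4 ± 7.08 CPM, and *Reln*, which neurons also make, from 66.7 ± 2.72 to 47.4 ± 4.47 CPM. Beside *Cd36*, 6 of 10 markers of blood vessel endothelium rose, *Cldn5* from 10.3 ± 1.91 to 22.5 ± 6.82 CPM, and their sum was 101 to 133 CPM in sham and 132 to 201 CPM in injured mice. Beside *Cd163*, 3 of 6 red blood cell genes that passed the filter fell, *Hba-a1* from 68.9 ± 16.6 to 37.5 ± 8.76 CPM. The part of these macrophages and endothelial cells in the levels of *Cd5l*, *Lyve1* and *Cd36* was not tested. Nor was the relation of the red blood cell genes to *Cd163*.

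Among 28 other scavenger receptor genes, 24 passed the filter, of which 13 rose and 2 fell after injury, beside 16.8% and 11.2% of all genes. Their median log2 fold change was 0.72, against 0.0166 for all genes. *Lgals3bp*, a secreted protein with a scavenger receptor domain as CD5L is, rose from 12.8 ± 3.04 to 242 ± 63.8 CPM (log2 4.24, SE 0.237, edgeR adjusted p = 1.1e-05). *Cd68*, macrosialin of the macrophage lysosome, rose from 7.90 ± 1.00 to 97.3 ± 29.1 CPM and *Cxcl16*, a membrane chemokine that binds oxidised lipoprotein, from 1.09 ± 0.347 to 14.3 ± 4.65 CPM. *Clec7a*, the beta-glucan receptor dectin-1, was at 0.131 ± 0.0871 CPM in sham and 34.2 ± 6.71 CPM in injured mice. Its sham mean was under the filter's cutoff of 0.213 CPM, so it could pass only with counts of the injured mice. *Scarb2*, a lysosomal class B relative of *Cd36*, rose by 0.57 (SE 0.0638). *Megf10*, the gene of an engulfment receptor, rose from 22.9 ± 2.03 to 36.5 ± 4.54 CPM, whereas its relative *Megf11* fell from 25.9 ± 0.737 to 19.1 ± 3.11 CPM. Both were named after their values were seen.

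Of 28 genes of apoptotic cell clearance, the route that *Mertk* and *Timd4* serve, 27 passed the filter. Of these 16 rose and 2 fell, beside 16.8% and 11.2% of all genes, with a median of 0.56. Under the equal-variance test 11 were called in either direction. *Cd300lb* and *Cd300lf*, receptors for lipids of dying cells, were at 0.0296 ± 0.0513 and 0.0717 ± 0.0237 CPM in sham and at 3.35 ± 0.548 and 6.40 ± 3.33 CPM in injured mice. Both were under the filter's cutoff of 0.213 CPM in sham and passed it through the injured mice alone. *Thbs1*, thrombospondin-1, which bridges dying cells to CD36, rose from 3.10 ± 0.629 to 45.0 ± 35.1 CPM, and *Anxa5*, which binds phosphatidylserine, from 51.8 ± 3.12 to 122 ± 11.8 CPM. *Calr* rose by 0.49 (SE 0.145) and *Rac1* by 0.24 (SE 0.0740). The receptor relatives and ligands of MERTK were looked up after the values of *Mertk* were seen. *Axl* rose from 47.3 ± 1.76 to 100 ± 14.4 CPM (log2 1.08, SE 0.108, edgeR adjusted p = 0.000157), *Tyro3* fell by 0.52 on the log2 scale (SE 0.103, edgeR adjusted p = 0.00603), and the ligand genes *Gas6* and *Pros1* rose by 0.61 (SE 0.0794) and 1.87 (SE 0.143). *Mertk* itself was at 0.23 with the interval above.

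Of 20 regulators and targets of LXR and PPAR receptors, known inducers of *Cd5l*, *Mertk* and *Cd36*, all passed the filter. Of these 14 rose and 0 fell, beside 16.8% and 11.2% of all genes, with a median of 0.69. Under the equal-variance test 8 were called. The 3 largest were *Plin2*, the lipid droplet coat (6.01 ± 0.635 to 78.8 ± 40.1 CPM), *Abca1*, the cholesterol exporter (38.6 ± 1.22 to 255 ± 30.6 CPM), and *Apoe*, the apolipoprotein (1577 ± 125 to 8474 ± 674 CPM). *Fabp5* rose by 0.92 (SE 0.145), whereas *Scd2* differed by 0.25 (SE 0.108, edgeR adjusted p = 0.126). The targets *Scd1* and *Fasn*, named after their values were seen, were not called either, at −0.02 and −0.09. The receptor genes themselves were looked up after these values were seen. *Nr1h3*, *Rxra* and *Ppard* rose by 1.02, 0.45 and 0.41 on the log2 scale. *Nr1h2*, *Rxrb* and *Pparg* were not called, at 0.13, 0.01 and −0.17. The part of these receptors in the members' levels was not tested. All of these lists were counted in the same 6 libraries as the 10 genes.

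**Figure D2:**
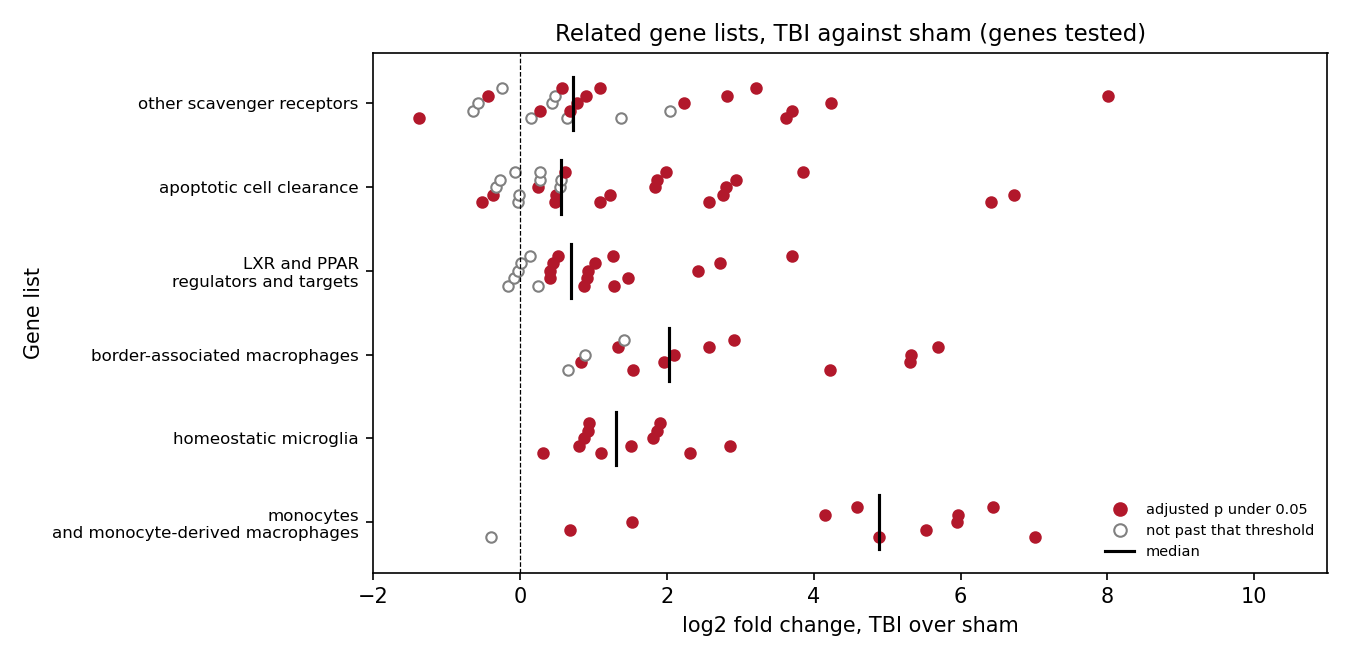
Fitted log2 fold change of TBI over sham for each tested gene of 6 related lists, with filled points for an adjusted p under 0.05, open points for the rest and a bar at the median. Most points of the 6 lists lie to the right of 0, and the medians run from 0.56 for apoptotic cell clearance to 4.89 for the monocyte markers.

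Zileuton was given to ask what follows when 5-lipoxygenase is inhibited in the injured brain. In the 6 injured mice of 2022, 0 of the 8 genes that passed the filter differed between zileuton and injured control at an adjusted p under 0.05 (edgeR), beside 0.0% of 17363 genes tested. At an unadjusted p under 0.05, 1 of the 8, *Msr1*, was lower, beside 3.9% of all genes in that direction and 6.83% in either. DESeq2 called 26 genes and none of the 10, also with 1 of them at an unadjusted p under 0.05. *Marco* had 1, 3 and 0 counts in the controls and 1, 3 and 2 with zileuton, and *Timd4* had 0, 5 and 0 against 1, 0 and 2, so no fold is given.

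*Msr1* had 429, 527 and 424 counts in the controls and 360, 303 and 149 with zileuton. In CPM the controls lay within a narrow range (14.7, 15.1 and 15.1), and each zileuton mouse lay below them (11.8, 9.52 and 5.19). The means were 15.0 ± 0.225 and 8.85 ± 3.37 CPM. The log2 fold change was −0.76 (SE 0.254, interval −1.34 to −0.17), with an unadjusted p of 0.0173 and an adjusted p of 0.713 (edgeR), so the difference did not pass the correction. Genes lower in every zileuton mouse than in every control made up 7.04% of all genes tested. Leaving out single mice gave −1.02 to −0.48, and the adjusted p ran from 0.314 to 0.977 over all alternatives. On the deposited TPM, limma and the equal-variance test gave unadjusted p-values of 0.0530 to 0.125. Per length the groups overlapped, at 16.1, 20.2 and 14.7 TPM in the controls and 15.6, 11.0 and 6.70 TPM with zileuton.

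Markers of other cells are given beside *Msr1*. Of 12 monocyte markers, 0 were called, 10 lay below and 2 above the controls, with a median of −0.48, and 3 had an unadjusted p under 0.05 (*Chil3*, *Ly6c2* and *Ccr1*, named after their values were seen). Their summed level overlapped, at 666, 975.5 and 1518 CPM in the controls and 1259, 624 and 615 CPM with zileuton, most of it *Lyz2* (780 ± 429 and 556 ± 248 CPM). Border macrophage markers were lower in 10 of 12 with a median of −0.25 and 0 called, and their sums were 136, 177 and 186 CPM against 174, 117 and 102 CPM. Red blood cell genes lay lower in 5 of 5, of which 4 had an unadjusted p under 0.05 and 4 did not overlap, with sums of 216 to 342 CPM in controls and 191 to 206 CPM with zileuton. The part of these cells in the level of *Msr1* was not tested.

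*Cd5l* had 1045, 1273 and 1998 counts in the controls and 2087, 1056 and 927 with zileuton, or 35.8, 36.4 and 71.3 CPM against 68.6, 33.2 and 32.3 CPM. In each group 1 mouse stood at about the same high level and the other two at about the same low level. The log2 difference was −0.10 (SE 0.355, interval −0.91 to 0.72, edgeR adjusted p = 0.955), and without control mouse C it was 0.31. *Stab1* had 3743, 5757 and 5871 counts in the controls and 6846, 4587 and 3529 with zileuton. It was highest in the same 2 mice as *Cd5l*, at 209 CPM in control C and 225 CPM in zileuton A, and the other 4 mice lay between 123 and 165 CPM. Its difference was −0.03 (−0.59 to 0.53, adjusted p = 0.98, edgeR).

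*Mrc1* (280, 239 and 278 counts against 320, 275 and 188) differed by −0.03 (−0.52 to 0.45). *Mertk* had the narrowest interval, −0.16 to 0.23 around 0.04, with 59.4 to 69.7 CPM in the controls and 64.9 to 69.6 CPM in zileuton mice. *Cd36* (200, 430 and 285 counts against 234, 291 and 137) lay lower by 0.44 on average but overlapped (−1.08 to 0.20, unadjusted p = 0.150 and adjusted p = 0.737, edgeR). *Lyve1*, at 10 to 27 counts per library, passed the filter through the controls alone, with a fitted difference of −0.59 (−1.43 to 0.25). *Cd163* (70, 80 and 57 counts against 65, 97 and 86) differed by 0.28 (−0.22 to 0.79).

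**Figure D3:**
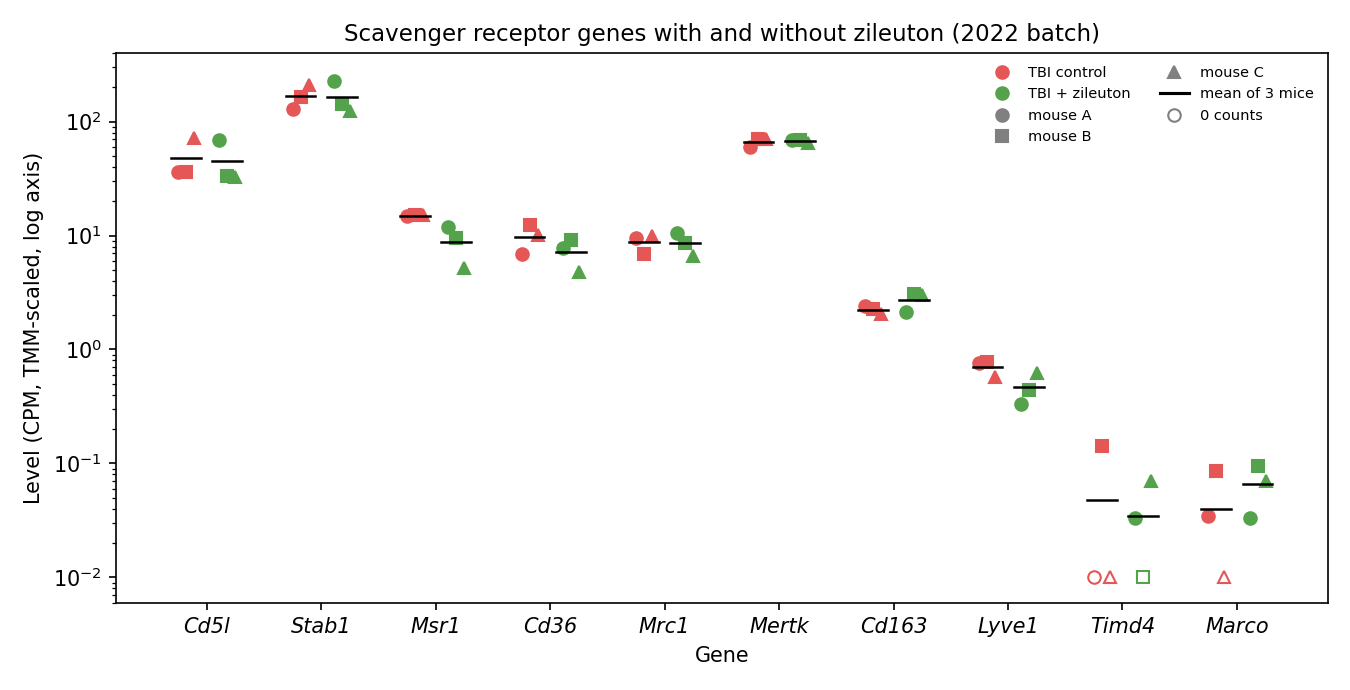
Level of each of the 10 genes in CPM on a log axis in each of 3 injured control mice (red) and 3 injured mice given zileuton (green) of the 2022 batch, with the mean as a bar and libraries with 0 counts as open symbols at the foot of the axis. Only *Msr1* has all zileuton mice below all controls, and the high mice of *Cd5l* and *Stab1* are control C and zileuton A.

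**Figure D4:**
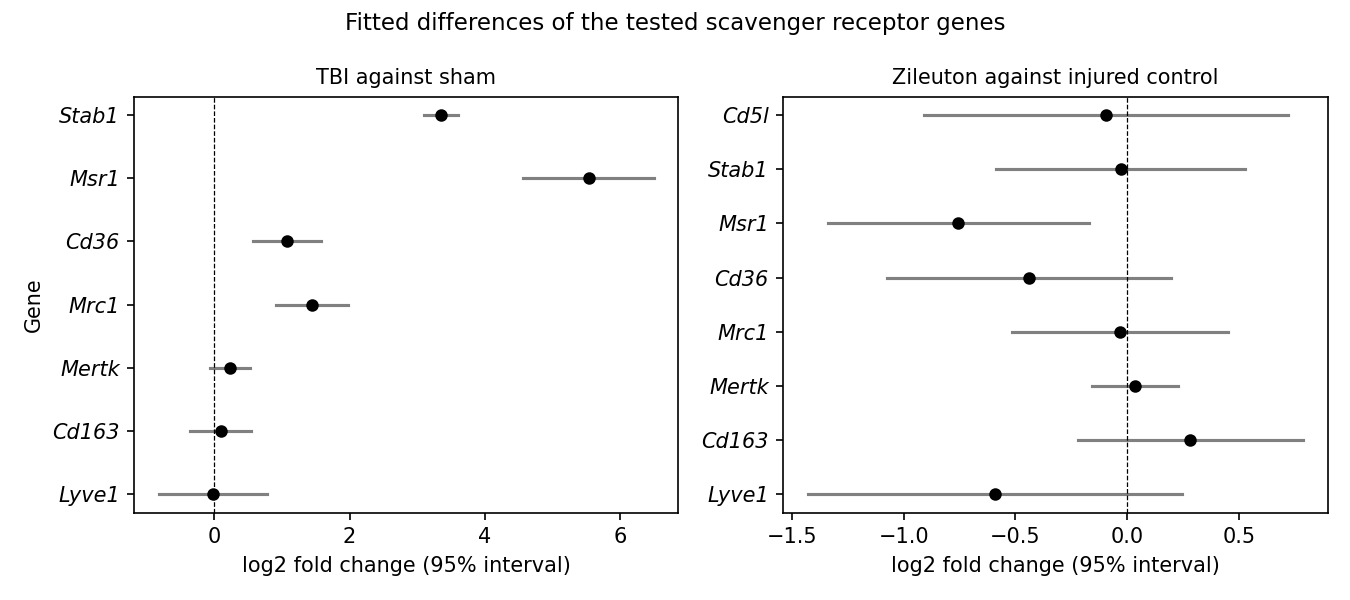
Fitted log2 fold change with its 95% interval for the tested genes, TBI against sham on the left and zileuton against injured control on the right, on different scales. *Cd5l* is left out on the left, since its fitted value depends on how 0 counts are treated. The left panel shows *Msr1* at 5.54 and *Stab1* at 3.35, and on the right the interval of *Msr1* alone leaves out 0.

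Per length, in the deposited TPM of 2022, *Stab1* was highest in the controls at 65.2 ± 15.3 TPM, followed by *Cd5l* at 44.4 ± 17.0, *Mertk* at 24.1 ± 1.74 and *Msr1* at 17.0 ± 2.85 TPM. The mice of *Stab1* and *Cd5l* overlapped, so their order was not settled by 3 mice. *Cd36* (7.01 ± 1.60), *Cd163* (4.64 ± 0.275), *Mrc1* (2.88 ± 0.523) and *Lyve1* (0.447 ± 0.0839) followed. The values in FPKM and TPM rest on different gene lengths and are not compared between batches.

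Across the 6 mice of 2022, and over 15213 genes with a mean of at least 1 CPM, 131 genes had a Pearson r above 0.95 with *Cd5l*. The 5 highest were *Msrb3*, a methionine sulfoxide reductase (0.996), *Plcb3*, a phospholipase C (0.994), *Tmem51* (0.994), *Snx18*, a sorting nexin (0.993), and *Pros1*, protein S (0.993). *Stab1* had r = 0.928 and ranked 244, *Mrc1* had 0.709, *Msr1* 0.441, *Mertk* 0.437, *Cd36* 0.278 and *Cd163* −0.811. *Cd163* was lowest in control C and next lowest in zileuton A, the 2 mice in which *Cd5l* was highest. These coefficients describe 6 libraries and rest largely on that pair of mice. In the mice of 2018, which the ranking did not use, *Pros1*, *Snx18*, *Plcb3* and *Tmem51* rose after injury by 1.87, 0.69, 0.94 and 0.92 on the log2 scale (edgeR adjusted p = 3.85e-05, 0.000229, 0.00109 and 0.0115), and *Msrb3* differed by 0.35 (adjusted p = 0.0963). Of all genes tested there 16.8% rose, and whether likeness to *Cd5l* goes with a rise was not tested.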

How the data were processed

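RNA-seq of mouse brain was used in 4 groups of 3 mice. The authors deposited raw counts and FPKM for the 2018 libraries and estimated counts and TPM for the 2022 libraries, of which 13.0 to 15.2% of values were not whole. The submitters' notes name HISAT2, featureCounts and GRCm39 without versions. In 2018, even numbers made up 62.3 to 64.4% of counts from 1 to 20, so both reads of a pair may have been counted, and counting intervals would then be too narrow. The deposited FPKM equalled counts per total and length for 100% of genes within 0.1%, and TPM rest on other lengths. Positions and names are from GENCODE M21 (GRCm38) and RefSeq. Symbols matched 34808 and 52081 identifiers. The 2022 table also held 223 rows of other kinds (0.209% of counts), which stayed in the totals and, where they passed the filter, in the fit.

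Estimated counts were rounded, genes filtered with filterByExpr, and groups compared within a batch by edgeR 4.0.16 (R 4.3.3; TMM scaling, quasi-likelihood test, Benjamini-Hochberg over all genes tested), tested on simulated data. Alternatives were DESeq2 1.42.0, limma 3.58.1 on log2(value + 1) or (+ 0.1), an equal-variance two-sample test on FPKM or TPM with the same adjustment (the study names a two-sided two-sample test, without its input or an adjustment), library totals, no filter, a replicate block and leaving out single libraries. p-values measure the spread between libraries. Besides the 10 genes, each related list names up to 3 genes of highest level in the injured mice and up to 3 of largest change, and 5 genes most like *Cd5l*. Members and lists were chosen with earlier results of these data known. *Scart1* and *Scart2* had no matching identifier and were not used, and 1 gene of the other scavenger receptors is not reported here by name.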

Additional observations from a re-analysis of the deposited data

How the results depend on the processing

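With 3 mice a group, a low count limited *Marco*, *Timd4*, sham *Cd5l* and *Lyve1*. The equal-variance two-sample test called 2625 genes after injury against 5479 (5832 at an unadjusted p under 0.05), 11 of the clearance genes against 18 and 8 of the LXR and PPAR genes against 14, and the cause was not tested. Of the members, whose calls after injury are no test, it called 1 against 5, with 5 at an unadjusted p under 0.05. Leaving out single libraries gave 3848 to 4956 genes, 12 to 15 other scavenger receptors, 15 to 18 clearance genes and 12 to 13 LXR and PPAR genes. For zileuton, DESeq2 called 26 genes, no filter 4, limma with + 1 called 4 and with + 0.1 called 3, against 0, and none of them was a member. The labels do not say what the replicate numbers mark. The 2022 columns of both groups are numbered 2, 3 and 6, and deviations of libraries with the same number correlated at −0.0228, −0.0944 and −0.0326 in 2018 and at −0.28, 0.0628 and −0.282 in 2022. With the replicate block, 4337 genes were called after injury, and with zileuton 0 genes were called and 729 had an unadjusted p under 0.05, against 1186.

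Of the single members, 103 values with zileuton kept their direction and their side of the threshold, and 9 values after injury and 14 with zileuton turned in sign, as follows. *Lyve1* after injury was 0.0273 by library totals, 0.0086 by limma with + 1 and also without a filter, 0.0209 by limma with + 0.1, 0.0213 by the equal-variance test, and −0.36 to 0.25 without single libraries. *Cd163* ran from −0.0702 to 0.20 without single libraries. With zileuton, *Mrc1* was 0.0421 by limma with + 1 and also without a filter, 0.0535 with + 0.1, and 0.0601 by the equal-variance test. Without single mice, *Cd5l* ran from −0.54 to 0.31, *Stab1* from −0.33 to 0.16, *Mrc1* from −0.20 to 0.13 and *Mertk* from −0.0355 to 0.0751.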

Other observations

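Marker genes of other cell types moved beside the 10 genes after injury, in the fit of the 2018 mice. In that fit 16.8% of all genes rose and 11.2% fell. Of 9 neutrophil genes, 7 passed the filter and all 7 rose, with *Csf3r*, the receptor for granulocyte colony-stimulating factor, at 3.85 ± 0.106 CPM in sham and 34.7 ± 3.46 CPM in injured mice. *Cxcr2*, *Mmp8*, *Retnlg* and *Ngp* had sham means of 0, 0.0144, 0.0717 and 0.189 CPM, under the filter's cutoff of 0.213 CPM. They could pass only with counts of the injured mice, so their direction was largely set by the filter. Of 10 neuronal genes 5 fell, with a median log2 fold change of −0.35. Of 10 astrocyte genes 6 rose and of 8 myelin genes of oligodendrocytes 5 rose, with medians of 0.52 and 0.67. Every injured mouse was above every sham mouse for 7 of the 10 and 4 of the 8. Among border macrophage markers, *Folr2*, a folate receptor, went from 0.0641 ± 0.0415 to 3.48 ± 1.49 CPM, *Siglec1*, a sialic acid receptor, from 0.353 ± 0.0213 to 14.1 ± 2.33 CPM, and *Ms4a7* from 0.501 ± 0.174 to 20.3 ± 8.83 CPM, while *Cd163* and *Lyve1*, known from the same macrophages, differed by 0.09 and −0.02 on the log2 scale. With zileuton, 0 genes of these lists were called (edgeR), and all 8 myelin genes lay above the controls with a median of 0.33, at summed levels of 8804 to 9100 CPM against 4344 to 9634 CPM.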
